A study of Homo sapiens with 6 samples.

Results

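Interferon-stimulated effector genes encode the proteins that cells make after interferon signalling to block viruses. A fixed list of 35 such genes was followed in the human osteosarcoma line U2OS by reading the row of each symbol in the deposited count and FPKM tables. All 35 had a row, among 44494 rows with a gene symbol and 50550 rows in all. The study sequenced RNA from 6 libraries, 3 titled Lv_LINC00673 with the genotype label LINC00673 and 3 titled Lv_NC with the genotype label NC. The series describes wild-type U2OS cells and derivatives in which the long noncoding RNA LINC00673 was knocked down. The labels do not say what NC or Lv stands for, give no time, dose or clone, and name no separate cultures behind the libraries. The p-values therefore rest on a spread between libraries that may be technical. Every fold change below is Lv_LINC00673 over Lv_NC.

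Type I and type III interferons bind receptors that act through the kinases JAK1 and TYK2. These lead to a complex with STAT2 and IRF9 that binds a DNA element called the ISRE, found near the start of many of the genes described here. Interferon gamma acts through JAK1 and JAK2 and a second element called GAS. Several of the genes are also switched on directly by IRF3 or IRF7 after viral RNA or DNA is sensed in the cell.

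The start regions of the genes were searched because they carry the elements through which interferon acts. RefSeq start regions (GRCh38.p14, 250 bases before to 50 bases after each annotated start) were found for 28 of the 35 genes, in 38 windows. The ISRE core was searched as GAAA, any 2 bases and GAAA, or on the other strand TTTC, any 2 bases and TTTC. GAS was searched as TTC, any 3 bases and GAA, which reads alike on both strands. Overlapping matches were counted, and in BST2, EPSTI1, IFI27 and MX1 an ISRE and a GAS match overlapped. The ISRE core stood in 26 of the 38 windows (68.4%), against 3.57% of all 34943 windows on the chromosomes. GAS stood in 10 of the 38 windows and in 7.66% of all windows. A match is a description of the letters and does not show binding.

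Stretches before the start with an ISRE match in capitals are shown for genes whose RNA differed between the groups and for genes whose RNA did not pass the test, since the element was present in both. Positions are those of the first base of the match in capitals relative to the start, and each stretch is read along its gene. Several of these genes held further ISRE matches, some of them in lower case within the stretch shown. In the first set, the match of IFIT1 is at -103 (chr10:89392495-89392554, plus strand), that of IFIT3 at -122 (chr10:89327850-89327909, plus strand), that of IFI44 at -18 (chr1:78649746-78649788, plus strand), that of SAMD9 at -136 (chr7:93118081-93118140, minus strand), that of DDX60L at -50 (chr4:168480508-168480567, minus strand) and that of PARP14 at -29 (chr3:122680785-122680838, plus strand).
IFIT1: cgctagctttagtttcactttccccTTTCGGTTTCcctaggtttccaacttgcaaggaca
IFIT3: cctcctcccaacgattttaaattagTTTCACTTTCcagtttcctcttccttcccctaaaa
IFI44: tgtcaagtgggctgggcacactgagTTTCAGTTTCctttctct
SAMD9: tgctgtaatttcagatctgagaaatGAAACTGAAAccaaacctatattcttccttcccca
DDX60L: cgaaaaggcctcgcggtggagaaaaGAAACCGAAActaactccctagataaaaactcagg
PARP14: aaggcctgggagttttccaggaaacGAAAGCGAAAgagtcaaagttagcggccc

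In the second set, the match of ISG15 is at -107 (chr1:1013365-1013424, plus strand), that of IFI6 at -115 (chr1:27672273-27672332, minus strand), that of OAS3 at -143 (chr12:112938306-112938365, plus strand) and that of BST2 at -124 (chr19:17405720-17405779, minus strand).
ISG15: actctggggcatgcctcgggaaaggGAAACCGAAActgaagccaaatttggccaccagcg
IFI6: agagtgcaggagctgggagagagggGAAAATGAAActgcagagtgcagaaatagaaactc
OAS3: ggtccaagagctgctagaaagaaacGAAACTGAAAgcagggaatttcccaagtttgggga
BST2: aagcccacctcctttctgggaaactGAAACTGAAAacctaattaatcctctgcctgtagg

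Of the genes past the test described below, 7 of the 9 with a start region held the ISRE core, as did 12 of the 15 tested genes that did not pass and 3 of the 4 that were too low to test. GAS stood in 2, 5 and 2 of them. HERC6 and SAMD9L, which both passed, had no ISRE match in the window.

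Total counts were 61815841 to 71237493 in the Lv_LINC00673 libraries and 76814723 to 87227980 in the Lv_NC libraries. LINC00673 itself stood at 6.55, 6.23 and 6.38 CPM in Lv_LINC00673 and 9.16, 9.27 and 7.08 CPM in Lv_NC. CPM here is the count scaled to a common library size with TMM factors, which correct for the makeup of each library. All 3 Lv_LINC00673 values were lower, but the gene did not pass the test (log2 fold change -0.41, SE 0.16, adjusted p = 0.0924), so each group is called by the title of its libraries. Of 8 osteosarcoma and mesenchymal markers 7 had a mean of at least 1 CPM, while COL1A2 had 13 counts in all. Of 11 blood and immune markers only CD68 and CD3D reached 1 CPM, and the list summed to 60.7 to 72.3 CPM in Lv_LINC00673 and 59.4 to 79.9 CPM in Lv_NC. The leukocyte marker PTPRC and the plasmacytoid dendritic cell markers CLEC4C and LILRA4 had 35, 4 and 2 counts over the 6 libraries. In bulk RNA, fewer cells that express a gene and less RNA per cell cannot be told apart.

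The list split into genes that rose and genes for which no change was detected, with none past the test in the lower direction. Of the 35 genes, 30 had enough counts to test with edgeR's quasi-likelihood test, 11 rose and 0 fell at an adjusted p of 0.05. Among all 21933 genes tested, 14.3% were higher and 12.5% lower. At an unadjusted p under 0.05, 1 further member (PARP9) was higher and 0 were lower, and DESeq2 called 12 higher and 0 lower. The median log2 fold change of the 30 members was 0.57, against 0.05 over all tested genes. The values of the 2 groups did not overlap in CPM for 14 members, all higher in Lv_LINC00673, where 23.7% of all tested genes were higher and 21.4% lower without overlap. The 30 are those with enough counts, so these figures do not cover all 35. They include IFI44L and OAS2, both also among the 14, which reached the test through their counts in Lv_LINC00673.

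**Figure D1:**
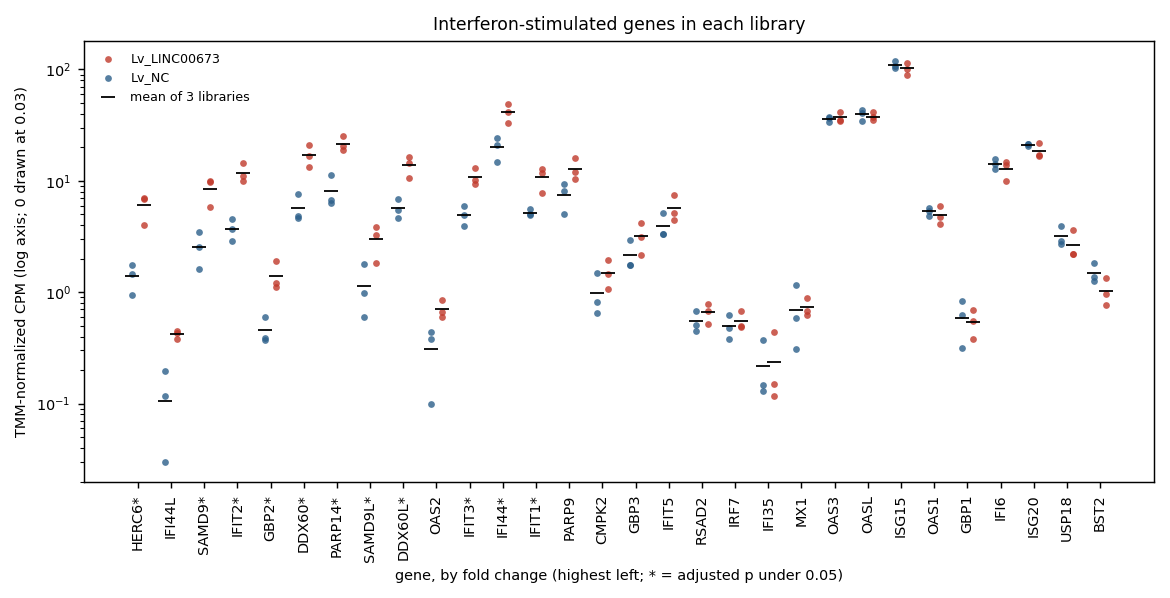
TMM-normalized CPM on a log axis for the 30 tested genes, ordered by fold change, with 1 point per library (red Lv_LINC00673, blue Lv_NC), a black bar for the mean of 3 libraries and a value of 0 drawn at 0.03. The 11 genes marked with a star sit with every red point above every blue point, while ISG15, OAS3, OASL, ISG20 and IFI6 show mixed points at higher levels.

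Fold changes in these libraries followed the GC content and length of transcripts across all genes, which bears on every value below. Both properties were known from GENCODE 29 for 16896 tested genes. Across them the Spearman correlation of log2 fold change was -0.42 with GC content and 0.33 with length, a description over genes that all come from the same 6 libraries. The lowest decile of GC content (at most 39.0%) had a median log2 fold change of 0.66, with 39.1% of its genes called higher. The highest decile (at least 62.3%) had a median of -0.18, with 2.19% called higher. For this reason each fold change is also given from a fit with an offset per library that removes the smooth trend with GC content and length, called the offset value below. With the offset, 11 members were higher and 0 lower, against 17.5% higher and 12.9% lower over all genes in that fit, and 10 of the 11 were also called without it. The median of the 30 members was then 0.50, against 0.10 over all genes.

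Among the genes for RNA-binding proteins, 3 of the 4 IFIT genes rose. IFIT proteins bind viral RNA, and IFIT1, IFIT2, IFIT3 and IFIT5 lie side by side on chromosome 10 from 89302046 to 89420997. IFIT2 stood at 9.94, 14.5 and 10.9 CPM in Lv_LINC00673 and at 3.67, 2.86 and 4.57 CPM in Lv_NC. Every Lv_LINC00673 library was more than 5 CPM above the highest Lv_NC library, a rise of 3.19-fold (95% interval 2.23 to 4.56, adjusted p = 0.00418; offset log2 fold change 1.41, adjusted p = 0.000679). IFIT3 stood at 10.2, 13.2 and 9.39 CPM against 5.94, 3.96 and 4.95 CPM. It rose 2.20-fold (interval 1.59 to 3.05, adjusted p = 0.00765), and its offset log2 fold change of 1.10 was close to the 1.14 without it. IFIT1, which recognises RNA caps that lack a host methyl group, stood at 7.71, 12.8 and 11.7 CPM against 5.62, 5.06 and 4.90 CPM. Its rise of 2.06-fold (interval 1.49 to 2.87, adjusted p = 0.00977) shrank from a log2 fold change of 1.05 to 0.65 with the offset and still passed (adjusted p = 0.0117).

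IFIT5, the last gene of the cluster, was not among them. It stood at 4.42, 7.47 and 5.12 CPM against 5.13, 3.33 and 3.35 CPM, so the groups overlapped, and it did not pass (log2 fold change 0.53, SE 0.26, adjusted p = 0.167). With the offset its log2 fold change was 0.02. Its GC content of 37.4% was the lowest of the 4 genes, the others being at 42.2% to 44.3%. No test of IFIT5 against the other members of the cluster was made. The gene LIPA is annotated in RefSeq across the whole of IFIT1, IFIT2 and IFIT3, and no source used here gives the strand setting of the counting, so reads of overlapping transcripts could not be told apart. LIPA stood at 15.1, 15.0 and 18.0 CPM against 18.1, 18.5 and 17.8 CPM and did not pass (log2 fold change -0.18, adjusted p = 0.355).

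The helicase-like genes DDX60 and DDX60L, neighbours on chromosome 4 from 168216294 to 168480492, both rose. DDX60, which has been tied to RIG-I signalling and viral RNA decay, stood at 13.4, 21.0 and 16.6 CPM in Lv_LINC00673 and at 7.68, 4.62 and 4.80 CPM in Lv_NC. The groups were well apart, with a rise of 2.98-fold (interval 2.02 to 4.41, adjusted p = 0.00534). DDX60L stood at 10.6, 16.5 and 14.4 CPM against 6.93, 4.62 and 5.47 CPM, a rise of 2.43-fold (interval 1.72 to 3.43, adjusted p = 0.00647). Both transcripts are long and low in GC content (6071 bases and 39.1%, 6781 bases and 38.7%). Their offset log2 fold changes were 0.96 and 0.61, down from 1.58 and 1.28, and both still passed (adjusted p = 0.00177 and 0.0053). On the deposited FPKM values DDX60L did not pass, at a log2 fold change of 0.48 on the log2(FPKM + 1) scale (limma adjusted p = 0.0968) and 0.64 on the log2(FPKM + 0.1) scale (0.102).

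The oligoadenylate synthetase genes, whose products activate the ribonuclease RNase L, did not pass. OAS1, OAS3 and OAS2 lie in a cluster on chromosome 12 from 112906962 to 113011723 and OASL lies on the same chromosome from 121017761 to 121039246. OAS3 stood at 41.4, 35.5 and 34.3 CPM in Lv_LINC00673 and 37.0, 36.4 and 33.5 CPM in Lv_NC, with a 95% interval of the fold from 0.872 to 1.24. OASL, a relative without synthetase activity, stood at 41.1, 37.1 and 34.9 CPM against 40.3, 43.3 and 34.7 CPM, with an interval from 0.793 to 1.16. The libraries of both groups mixed at these genes, and the intervals leave out a change as large as that of IFIT2. OAS1 stood at 4.09, 4.74 and 5.97 CPM against 5.41, 5.73 and 4.84 CPM (interval 0.688 to 1.245). OAS2 had only 44, 57 and 45 counts against 34, 8 and 28, and reached the test through its counts in Lv_LINC00673. Its groups did not overlap. The log2 fold change of 1.20 had an SE of 0.54 and did not pass (adjusted p = 0.133; offset log2 fold change 1.09). The exonuclease gene ISG20 stood at 21.7, 17.2 and 16.8 CPM against 21.6, 20.6 and 21.2 CPM, overlapping (interval 0.705 to 1.09, adjusted p = 0.346).

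SAMD9 and SAMD9L encode large antiviral proteins that also restrain cell growth and lie side by side on chromosome 7 from 93099518 to 93148385. SAMD9 stood at 5.86, 10.04 and 9.67 CPM in Lv_LINC00673 and at 3.49, 1.63 and 2.52 CPM in Lv_NC. It rose 3.35-fold (interval 2.04 to 5.48, adjusted p = 0.00743), and the log2 fold change went from 1.74 to 1.05 with the offset (adjusted p = 0.00296). Its transcript had the lowest GC content of the tested members, 36.1%. SAMD9L stood at 1.85, 3.85 and 3.26 CPM against 1.81, 0.605 and 0.987 CPM, so Lv_LINC00673 library 1 and Lv_NC library 1 were nearly level. It rose 2.63-fold (interval 1.35 to 5.12, adjusted p = 0.0402), but with the offset it no longer passed (0.72 on the log2 scale, adjusted p = 0.106). The call was also lost without Lv_LINC00673 replicate 2 or 3 (log2 fold changes 1.15 and 1.33, adjusted p = 0.137 and 0.113) and without Lv_NC replicate 2 or 3 (1.09 and 1.30, adjusted p = 0.0871 and 0.128). On the FPKM values SAMD9L did not pass either (limma adjusted p = 0.0654 and 0.0519 with pseudocounts of 1 and 0.1).

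Among genes for ubiquitin-like and ADP-ribose transfer, HERC6 had the largest fold change of all tested members that passed. HERC6 belongs to a family of ubiquitin ligases, of which HERC5 joins ISG15 to other proteins in human cells. HERC6 stood at 4.03, 6.93 and 7.06 CPM in Lv_LINC00673 and at 1.76, 0.9504 and 1.47 CPM in Lv_NC. The lowest Lv_LINC00673 library was above the highest Lv_NC library by more than 2 CPM, and the rise was 4.31-fold (interval 2.68 to 6.95, adjusted p = 0.0045). The offset log2 fold change of 2.04 was close to the 2.11 without it. HERC5, its neighbour on chromosome 4, had 8, 5 and 0 counts against 0, 5 and 0 and was too low to test. Reads of the antisense or overlapping long noncoding RNA LOC102723458, annotated across part of both genes, could not be told apart from theirs.

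PARP14 and PARP9 encode ADP-ribosyltransferase family members whose genes lie near each other on chromosome 3. PARP14 stood at 18.8, 25.1 and 20.4 CPM in Lv_LINC00673 and 11.3, 6.34 and 6.72 CPM in Lv_NC. The groups were apart, with a rise of 2.64-fold (interval 1.81 to 3.85, adjusted p = 0.00646; offset log2 fold change 0.95, adjusted p = 0.00286). PARP9 stood at 10.4, 16.0 and 12.0 CPM against 9.43, 5.07 and 8.05 CPM. It was higher in every Lv_LINC00673 library and stood just short of the threshold (log2 fold change 0.77, SE 0.26, adjusted p = 0.0551), and the offset log2 fold change was 0.33 (adjusted p = 0.189). PARP9 passed in 8 of the 20 alternatives. Among these were fits without Lv_LINC00673 replicate 1 (log2 fold change 0.89, adjusted p = 0.0461) and without Lv_NC replicate 1 (0.96, adjusted p = 0.0328). Upper-quartile factors, library totals alone, a filter of 1 CPM in 3 libraries and summed numbered copies were others (adjusted p = 0.0375, 0.0439, 0.04 and 0.042). PARP9 also passed with DESeq2 (DESeq2 adjusted p = 0.0121) and limma-voom (limma adjusted p = 0.0498). It shares 447 bases at its start with DTX3L, which encodes its partner ubiquitin ligase and read in the other direction, and DTX3L passed (log2 fold change 1.09, SE 0.19, adjusted p = 0.00687; offset 0.76). The span of PARP9 also shares 32047 bases with the long noncoding RNA gene LOC105374071. Reads from the shared stretches could not be assigned without the strand setting.

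IFI44 was the most abundant of the genes that rose, both in CPM and per length. Its product is an antiviral protein of the cell's interior. IFI44 stood at 33.3, 49.0 and 41.7 CPM in Lv_LINC00673 and at 24.4, 14.9 and 20.8 CPM in Lv_NC, a rise of 2.07-fold (interval 1.496 to 2.85, adjusted p = 0.00927). With the offset the log2 fold change was 0.82 (adjusted p = 0.00114), against 1.05 without it. Its neighbour IFI44L on chromosome 1 was low, with 33, 29 and 26 counts against 9, 16 and 0. The groups did not overlap and the log2 fold change was 1.98, but with an SE of 0.88 it did not pass (adjusted p = 0.13; offset 1.31). Of the alternatives, only log2(FPKM + 0.1) had it past the threshold (0.64, limma adjusted p = 0.0347). IFI44L reached the test through its counts in Lv_LINC00673.

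The guanylate-binding proteins are large GTPases that coat vacuoles and bacteria, and 1 of the 3 genes on chromosome 1 rose. GBP2 stood at 1.12, 1.90 and 1.20 CPM in Lv_LINC00673 and at 0.388, 0.370 and 0.603 CPM in Lv_NC. It rose 3.10-fold (interval 1.79 to 5.35, adjusted p = 0.012), and the offset log2 fold change of 1.75 was above the 1.63 without it. The call was lost without Lv_LINC00673 replicate 2 (log2 fold change 1.34, adjusted p = 0.0533). GBP3 stood at 3.16, 4.17 and 2.17 CPM against 2.97, 1.75 and 1.76 CPM and GBP1 at 0.383, 0.687 and 0.557 against 0.827, 0.630 and 0.315 CPM, both with overlap and neither past the test (log2 fold changes 0.55 and -0.13, SE 0.31 and 0.44). GBP genes share sequence, so single members are uncertain. MX1, a dynamin-like GTPase that blocks influenza virus, had 46, 60 and 46 counts against 24, 95 and 43, with a fold interval from 0.500 to 2.24, and its relative MX2 had 7, 0 and 0 counts against 0, 9 and 3.

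**Figure D2:**
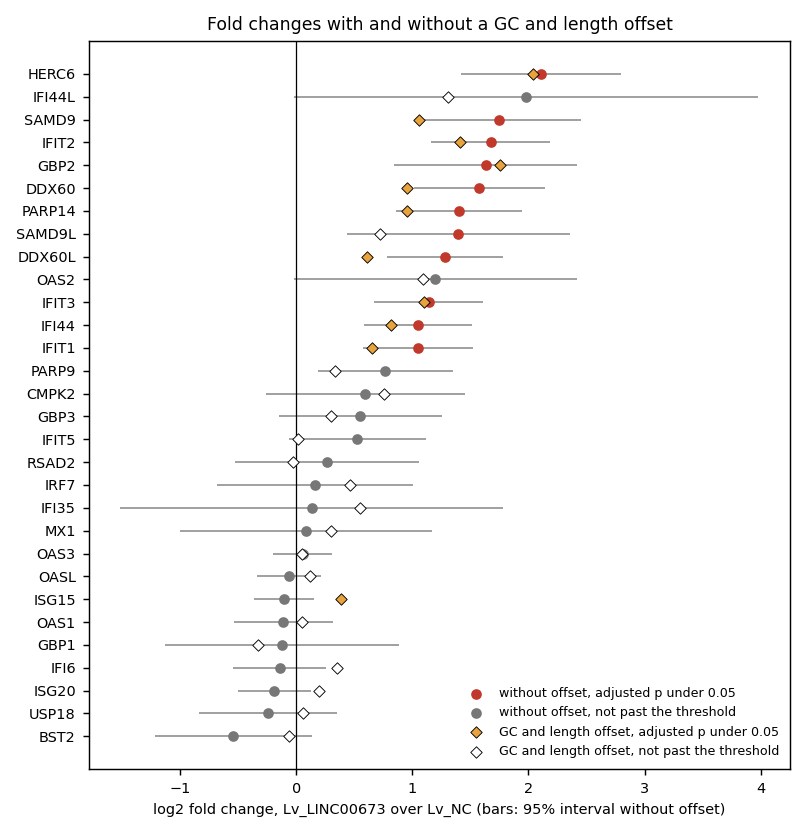
Log2 fold change of the 30 tested genes (circles, red where the adjusted p was under 0.05, with 95% intervals as bars) and the value with the GC and length offset (diamonds, filled where past the threshold). The diamonds of HERC6, IFIT3 and GBP2 stay by their circles, those of SAMD9, DDX60 and DDX60L move left, and ISG15 moves from -0.11 to 0.38.

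ISG15, the ubiquitin-like protein joined to other proteins after interferon, was by far the most abundant member. Its mean FPKM, a level per transcript length, was 160 over the 6 libraries, followed by OASL at 18.4, IFI6 at 15.9 and IFI44 at 15.7, while the ranges of OASL, IFI6 and IFI44 over libraries overlapped. ISG15 stood at 115, 89.7 and 102 CPM in Lv_LINC00673 and 107, 120 and 103 CPM in Lv_NC. The groups overlapped, and the gene did not pass (fold 0.929, interval 0.779 to 1.11, adjusted p = 0.523). With the offset, however, ISG15 was called higher (log2 fold change 0.38, SE 0.07, adjusted p = 0.00296), and it was the only member called with the offset and not without it. Its short transcript of 787 bases was 63.4% GC. The direction for ISG15 thus rests on how GC content and length were treated, and with library totals alone it was 0.06.

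IFI6, which encodes a membrane protein that protects cells from flavivirus replication and death, did not pass in either fit. It stood at 14.7, 10.05 and 13.95 CPM against 15.8, 14.1 and 12.9 CPM, overlapping (fold interval 0.685 to 1.20), and its log2 fold change was -0.14 without and 0.35 with the offset (adjusted p = 0.587 and 0.107). USP18, which removes ISG15 from proteins and damps receptor signalling, stood at 3.61, 2.20 and 2.22 CPM against 2.87, 3.93 and 2.70 CPM (interval 0.559 to 1.28). BST2, a tether that holds budding viruses at the cell surface, stood at 1.35, 0.956 and 0.763 CPM against 1.27, 1.38 and 1.84 CPM, with the lowest log2 fold change of the list at -0.54 (SE 0.30, adjusted p = 0.211) and an offset value of -0.06. IRF7, the transcription factor that amplifies interferon production, had 50, 33 and 33 counts against 48, 39 and 28, a range of 0.384 to 0.683 CPM, and 186 counts on a numbered copy of its row. Its fold interval ran from 0.624 to 2.00.

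Other members were low in both groups. CMPK2, a mitochondrial nucleotide kinase gene, had 143, 97 and 73 counts against 116, 53 and 59, and RSAD2, encoding viperin, which makes a chain-terminating nucleotide, had 50, 52 and 35 against 53, 41 and 33. The 2 genes overlap by 751 bases on chromosome 2, and neither passed (log2 fold changes 0.60 and 0.26, SE 0.38 and 0.35). IFI35 had 32, 10 and 8 counts against 10, 12 and 27, with the high library of each group apart from the others. The members too low to test were MX2, HERC5, IFI27, XAF1 and EPSTI1, with 19, 18, 37, 9 and 5 counts over all 6 libraries. No difference was detectable for these at this depth, and no fold is given.

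**Figure D3:**
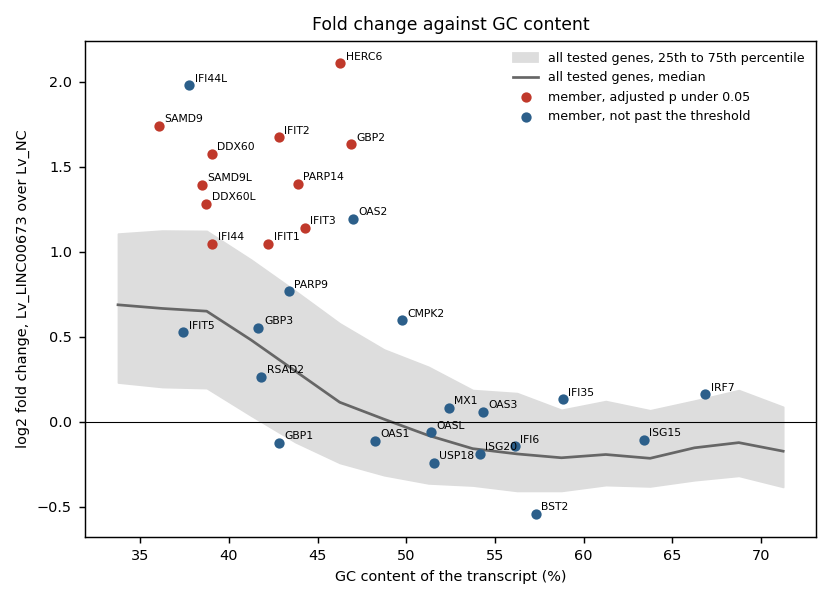
Log2 fold change against transcript GC content for the 30 tested members (red past the threshold, blue not), over the median (line) and the 25th to 75th percentile (band) of all tested genes by GC content. The 11 red points lie between 36.1% and 46.9% GC, and all but IFI44 stand above the band.

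The members that rose and those that did not pass differed in transcript makeup. The 11 that rose ran from 36.1% to 46.9% GC with a median of 42.2%, and from 1687 to 7915 bases with a median of 4613. The other 19 tested members ran from 37.4% to 66.9% GC with a median of 51.4%, and from 787 to 6769 bases with a median of 3035. Over the 30 members, which share the same 6 libraries, the Spearman correlation of log2 fold change was -0.66 with GC content and 0.64 with length, and with offset values -0.28 with GC content. Below 45% GC, IFIT5, GBP1, GBP3, RSAD2, PARP9 and IFI44L did not pass.

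The same 6 libraries differed in GC tilt, taken as the median deviation from the gene mean in log2 CPM of the lowest GC decile minus that of the highest. In the order of their numbers, the Lv_LINC00673 libraries had a tilt of -0.02, 0.77 and 0.57 and the Lv_NC libraries one of -0.10, -0.81 and -0.34. The median deviation of the 11 members that rose was 0.48, 1.12 and 0.72 in Lv_LINC00673 and -0.33, -1.03 and -0.67 in Lv_NC, in the same order within each group as the tilt. For the 19 other tested members it stayed between -0.15 and 0.15 in all 6 libraries. The 11 genes were called from these same libraries, so the side on which each group lies follows from that choice, and the part of the tilt in these values was not tested.

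**Figure D4:**
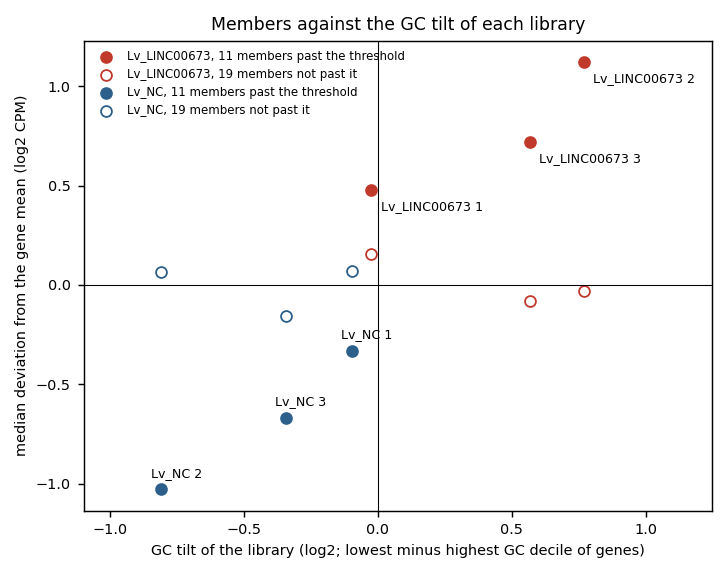
For each library, the GC tilt (horizontal, log2) against the median deviation from the gene mean in log2 CPM (vertical) of the 11 members past the threshold (filled) and the 19 other tested members (open), red for Lv_LINC00673 and blue for Lv_NC. The filled points climb with the tilt within each group, and their sides follow from how the 11 genes were called.

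The rest of the interferon pathway was read from a list of 80 other genes, of which 67 had enough counts to test. In all 17 rose and 10 fell, a median log2 fold change of -0.06, where 14.3% of all tested genes were higher and 12.5% lower. With the offset 19 rose and 6 fell, where 17.5% of all genes in that fit were higher and 12.9% lower. These shares are the background for each group of the list below. No interferon gene on this list was measurable in quantity, and other interferon genes were not read. Of 8 ligand genes, IFNA1, IFNB1, IFNG and IFNL2 had 0 counts in every library, which allows up to 0.0370 to 0.0448 CPM from counting error alone, and the highest count of any ligand in a library was 16, for IFNL1.

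Of 9 receptor and kinase genes 3 rose and 0 fell, and with the offset 2 rose and IL10RB, a chain of the type III receptor, fell (log2 fold change -0.58, adjusted p = 0.0135, against -0.33 without it). JAK1, the kinase shared by all interferon receptors, stood at 53.6, 73.4 and 59.3 CPM against 38.3, 23.8 and 29.2 CPM (log2 fold change 1.03, SE 0.19, adjusted p = 0.00773; offset 0.85). IFNAR1, a chain of the type I receptor, had a log2 fold change of 1.15 (adjusted p = 0.0142; offset 0.67) and JAK2 one of 0.93 (adjusted p = 0.0355; offset 0.37, not past the threshold). IFNAR1 lost its call without Lv_LINC00673 replicate 2 or 3 or Lv_NC replicate 3 (adjusted p = 0.0538, 0.0537 and 0.0624). JAK2 lost it without Lv_LINC00673 replicate 2 or 3 or Lv_NC replicate 2 or 3 (adjusted p = 0.134, 0.078, 0.103 and 0.11).

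Among transcription factor genes, STAT2 and IRF9, which act in the complex that binds the ISRE, were past the threshold only with the offset (log2 fold changes 0.31 and 0.69, against 0.13 and 0.27), as was IRF3 (0.23, against -0.20). IRF1 fell (log2 fold change -0.45, adjusted p = 0.0258; offset -0.25, not past the threshold) and lost the call when any library but Lv_LINC00673 replicate 1 was left out (adjusted p = 0.0557 to 0.0798).

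Of 11 sensor and adaptor genes tested 5 rose and 0 fell. IFI16, a nuclear DNA sensor, stood at 11.9, 19.7 and 15.2 CPM against 6.53, 3.49 and 5.62 CPM (log2 fold change 1.58, adjusted p = 0.00646; offset 1.29). RIGI, the RNA sensor listed under its older symbol DDX58, stood at 5.40, 7.72 and 5.56 CPM against 3.13, 2.25 and 1.85 CPM (1.37, adjusted p = 0.00741; offset 0.92). TLR3, the endosomal sensor of double-stranded RNA, had 32, 64 and 21 counts against 0 in every Lv_NC library, at least 43.3-fold higher against 3 counts over the group, and so reached the test only through the group where it is high. TBK1, the kinase downstream of these sensors, had a log2 fold change of 1.00 (adjusted p = 0.0362; offset 0.62), lost without Lv_LINC00673 replicate 2 or 3 or Lv_NC replicate 2 or 3 (adjusted p = 0.106, 0.125, 0.0638 and 0.0899). With the offset CGAS and TRAF3 were called lower (log2 fold changes -0.45 and -0.21).

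Antigen presentation genes are also inducible by interferon. Of 12 tested 0 rose and 5 fell, and with the offset 0 rose and 3 fell, against 12.5% and 12.9% lower over all genes. B2M stood at 263, 250 and 280 CPM against 378, 387 and 408 CPM (log2 fold change -0.57, adjusted p = 0.0045; offset -0.79). TAPBP and HLA-C fell by 0.66 and 0.62 on the log2 scale (adjusted p = 0.00998 and 0.0044), the latter not past the threshold with the offset (-0.17). HLA-E and TAP1 (-0.64 and -0.61) lost their calls with the offset and without Lv_LINC00673 replicate 2 or 3 or Lv_NC replicate 2 or 3 (adjusted p = 0.0762 to 0.103 and 0.0773 to 0.113), TAP1 also without replicate 1 of either group. Most of these genes have numbered copies among the rows, so single rows are uncertain.

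Of 21 other interferon-stimulated genes tested 7 rose and 2 fell, the latter being TRIM21 and LGALS3BP (log2 fold changes -0.57 and -0.49). With the offset neither passed (-0.26 and -0.13, adjusted p = 0.131 and 0.0993), and TRIM21 also lost its call without Lv_LINC00673 replicate 2 or 3 or Lv_NC replicate 3 (adjusted p = 0.0794, 0.0908 and 0.0824). ADAR, which edits double-stranded RNA, rose from 71.2 ± 9.85 to 142 ± 16.8 CPM (SD, n = 3; edgeR adjusted p = 0.00394; offset log2 fold change 0.86, against 1.00). EIF2AK2, encoding the RNA-activated kinase PKR, rose with a log2 fold change of 0.80 (adjusted p = 0.0211) that was 0.02 with the offset. NMI had one of 1.03 (adjusted p = 0.0389; offset 0.83). EIF2AK2 lost its call without Lv_LINC00673 replicate 2 or 3 or Lv_NC replicate 3 (adjusted p = 0.0794, 0.0778 and 0.0604) and NMI without Lv_LINC00673 replicate 2 or 3 or Lv_NC replicate 1 or 2 (0.123, 0.14, 0.0705 and 0.0972). Among feedback inhibitors PIAS1 rose (1.19, adjusted p = 0.00649; offset 0.55), while SOCS3 fell by 0.40 on the log2 scale (adjusted p = 0.0273). UBE2L6, the E2 enzyme that carries ISG15, fell by 0.47 (adjusted p = 0.0318). SOCS3 and UBE2L6 lost their calls with the offset (-0.08 and -0.02) and without replicate 2 or 3 of either group (adjusted p = 0.0798 to 0.102 and 0.0736 to 0.113).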

How the data were processed

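RNA of 3 Lv_LINC00673 and 3 Lv_NC libraries was prepared with TruSeq chemistry and sequenced (per the labels' protocols). The authors deposited whole-number read counts per gene and FPKM values, all columns matched to libraries by name (0 unmatched). The build was hg38 per the submitters' processing notes. The sources used here do not give the aligner, counter, annotation, strand setting or FPKM length model. The 6056 rows without a symbol (3.22% to 4.26% of counts) stayed in the fit and are not named.

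Genes passing filterByExpr were scaled with TMM factors, and edgeR 4.0.16 in R 4.3.3 gave robust quasi-likelihood tests (two-sided), Benjamini-Hochberg adjusted over 21933 genes. Every adjusted p is from edgeR unless another tool is named. SE is the log2 fold change over the square root of F. The offset was a mgcv 1.9.3 smooth of each library's log2 CPM deviation on transcript GC content and length, fitted where the mean log2 CPM exceeded 2. Both came from the longest protein-coding GENCODE 29 transcript, or the longest of any kind where there was none (found for all 35 members). The test was checked on simulated data that held no trend with GC content or length. Alternatives included DESeq2 1.42.0, limma 3.58.1 and log2(FPKM + 1 or 0.1). CPM per library and statistics are given for members past the threshold or averaging 10 CPM or more, and every member is named. From each role of the pathway list at most 4 genes past the threshold of largest change were named, with others (B2M, STAT2, IRF9, IRF3, CGAS, TRAF3, TRIM21, LGALS3BP, IL10RB and LIPA) and the per-library values of lower members added after their values were seen. Members and lists were chosen with earlier results of these data known. Intervals on counts cover counting error only. Some results of the pathway list are not reported here.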

Additional observations from a re-analysis of the deposited data

How the results depend on the processing

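The 11 members called higher were 9 to 12 under every alternative but the replicate block, and 0 were called lower under any of the 20 alternatives. HERC6, SAMD9, IFIT2, DDX60 and PARP14 kept their calls in all 20. Leaving out 1 library gave 9 to 12 members higher. Deviations of same-numbered libraries had correlations of -0.12, -0.11 and 0.00067. These deviations also carry the GC tilt of each library, so they cannot show whether same-numbered libraries were prepared together. A replicate block gave 6 members higher, and IFIT1, IFIT3, GBP2, SAMD9L and IFI44 missed the threshold (edgeR adjusted p = 0.0572, 0.051, 0.0559, 0.11 and 0.0552). The pathway list gave 6 higher and 2 lower with the replicate block, and 11 higher and 4 lower with offset and replicate block together. The 10 pathway genes called lower became 4 with library totals, 16 with DESeq2, 5 and 2 on log2(FPKM + 1) and log2(FPKM + 0.1), 6 with the offset and 17 with numbered copies summed. Leaving out 1 library gave 7 to 16 pathway genes higher and 4 to 15 lower. Of all genes called, 53.5% were higher, against 76.8% with library totals, 70.9% and 85.1% on the FPKM scales and 66.2% with the replicate block. The all-gene median was 0.05, and 0.22 with library totals.

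All changes of sign were in members that had not passed, of which ISG15 passed with the offset (edgeR adjusted p = 0.00296, and 0.0192 with the replicate block). With the offset, alone and then with the replicate block, the log2 fold changes were 0.061 and 0.044 for USP18, 0.38 and 0.38 for ISG15, 0.045 and 0.033 for OAS1, 0.11 and 0.12 for OASL, 0.20 and 0.20 for ISG20, -0.029 and -0.036 for RSAD2, and 0.35 and 0.35 for IFI6. With library totals they were 0.058 for ISG15, 0.057 for OAS1, 0.10 for OASL, 0.0455 for GBP1 and 0.017 for IFI6. On log2(FPKM + 1) they were 0.052 for ISG15, 0.00082 for OAS1, 0.071 for OASL, 0.0098 for GBP1 and 0.0044 for IFI6. On log2(FPKM + 0.1) they were 0.052 for ISG15, 0.07509 for OASL, 0.057 for GBP1 and 0.0040 for IFI6. Leaving out 1 library moved IRF7 between -0.033 and 0.35, OAS3 between -0.044 and 0.10, OASL between -0.15 and 0.0038, MX1 between -0.27 and 0.70, GBP1 between -0.43 and 0.19 and IFI35 between -0.70 and 0.75. The cause of these changes was not tested. MX1, GBP1, IFI35, IRF7, RSAD2, OAS2 and IFI44L had fewer than 100 counts in every library.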
